A study of Mus musculus with 15 samples.

Results

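The imprinted growth genes described here, in infarcted mouse left ventricles, are H19, Igf2, Igf2r, Dlk1, Meg3, Plagl1, Cdkn1c, Grb10, Peg3 and Mest. They were chosen by name, with earlier results of these data known, as 10 of the 39331 genes in the deposited count table. All 10 passed the low-count filter that left 16437 genes. An imprinted gene is expressed mainly from the copy inherited from 1 parent. Many such genes adjust growth before and shortly after birth: paternally expressed members tend to promote it, and maternally expressed members tend to restrain it. Several form a co-regulated network in mouse tissues that is switched down in most organs as postnatal growth slows. In the heart, the ligand encoded by Igf2 is known as a growth factor from the epicardium and endocardium for embryonic cardiomyocytes.

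Polyadenylated RNA of left ventricles was profiled in C57BL/6 mice, all 4 groups of which had undergone experimental infarction. The groups were adult hearts with adult T cells (AH_T, 4 libraries, numbers 1 to 4), untreated adult hearts (AH_C, 3 libraries, numbers 5 to 7), neonatal hearts with adult T cells (NH_T, 4 libraries, numbers 1, 2, 4 and 5) and untreated neonatal hearts (NH_C, 4 libraries, numbers 6 to 9). The hearts with T cells are called recipients here and the untreated ones controls. The protocol gives 36 h after infarction and mentions neonatal hearts only. The time in adults, the ages in days, the number of T cells, the infarct size and whether a library came from 1 animal are not stated, so p-values may measure technical spread only.

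Libraries held 21871617 to 34302786 counts, and a floor of 3 counts equalled 0.0875 to 0.137 CPM (a count divided by its library total, per 1e6). The tissue label was checked against 8 cardiomyocyte markers, whose summed level was 40503 to 70098 CPM in every library. Neonatal control 8 stood apart from the other neonatal libraries on the first principal component, at 4.27 against 37.8 to 54.7, while adult libraries lay from −59.3 to −34.2. Adult ventricles held more of the adult troponin I than neonatal ones: Tnni3 measured 3048 ± 207 CPM in adult controls and 1907 ± 297 CPM in neonatal controls (SD, n = 3 and 4). The fetal isoform Tnni1 nevertheless measured 1041 ± 47.6 CPM in adult controls, against 1534 ± 165 CPM in neonatal controls. Between controls both passed: Tnni3 was higher in adult hearts (edgeR log2 fold change 0.68 ± 0.12, adjusted p = 0.000411) and Tnni1 lower (−0.56 ± 0.09, adjusted p = 0.000270). The adult myosin gene Myh6 measured 12767 ± 1561 CPM in adult controls and 11401 ± 831 CPM in neonatal controls, and did not pass (edgeR log2 fold change 0.16 ± 0.14, adjusted p = 0.406). The fetal myosin gene Myh7 measured 1552 ± 323 CPM in adult controls and 2271 ± 481 CPM in neonatal controls (−0.55 ± 0.18, adjusted p = 0.0266). Between recipients Myh6 was higher in adult hearts (edgeR log2 fold change 0.65 ± 0.13, adjusted p = 0.000488), as was Tnni3 (1.097 ± 0.113, adjusted p = 6.75e-07). Neither Tnni1 (−0.19 ± 0.09, adjusted p = 0.0789) nor Myh7 (−0.09 ± 0.16, adjusted p = 0.657) passed between recipients. In mature mouse ventricles H19, Igf2 and Tnni1 are known to be low. In the infarcted adult controls H19 and Igf2 ranked 128th and 318th of 15332 genes by CPM per kb of transcript. How far past birth the hearts labelled adult were is uncertain and was not tested. No library was uninjured or had a stated age in days. Each age difference is one between libraries so labelled. The isoforms were looked at after the values of the imprinted genes had been seen.

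The 10 genes together took 0.235% to 0.281% of all counts in the 7 adult libraries and 0.470% to 0.557% in the 8 neonatal libraries, so the ranges did not overlap. H19 and Igf2 supplied most of these counts, 57.0% to 64.6% in adult libraries and 60.1% to 64.9% in neonatal ones. Per kilobase of the longest transcript, H19 ranked highest in every group. Its mean level was 373 ± 24.5 and 363 ± 45.4 CPM per kb in adult recipients and adult controls, and 791 ± 39.1 and 780 ± 48.1 CPM per kb in neonatal recipients and neonatal controls. In adult controls the order below H19 was Igf2 (161 ± 7.23 CPM per kb), Mest (113 ± 7.28), Grb10 (62.5 ± 2.18), Igf2r (26.8 ± 2.40), Cdkn1c (15.8 ± 2.36), Plagl1 (14.2 ± 0.48), Meg3 (9.16 ± 3.93), Peg3 (6.55 ± 0.77) and Dlk1 (2.31 ± 0.63). Within that order, Cdkn1c and Plagl1 lay within their spread of each other, as did Meg3 and Peg3. Among 15332 genes with a known transcript length, H19 was the 128th most abundant per kb in adult controls and Igf2 the 318th, against 32nd and 193rd in neonatal controls.

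**Figure D1:**
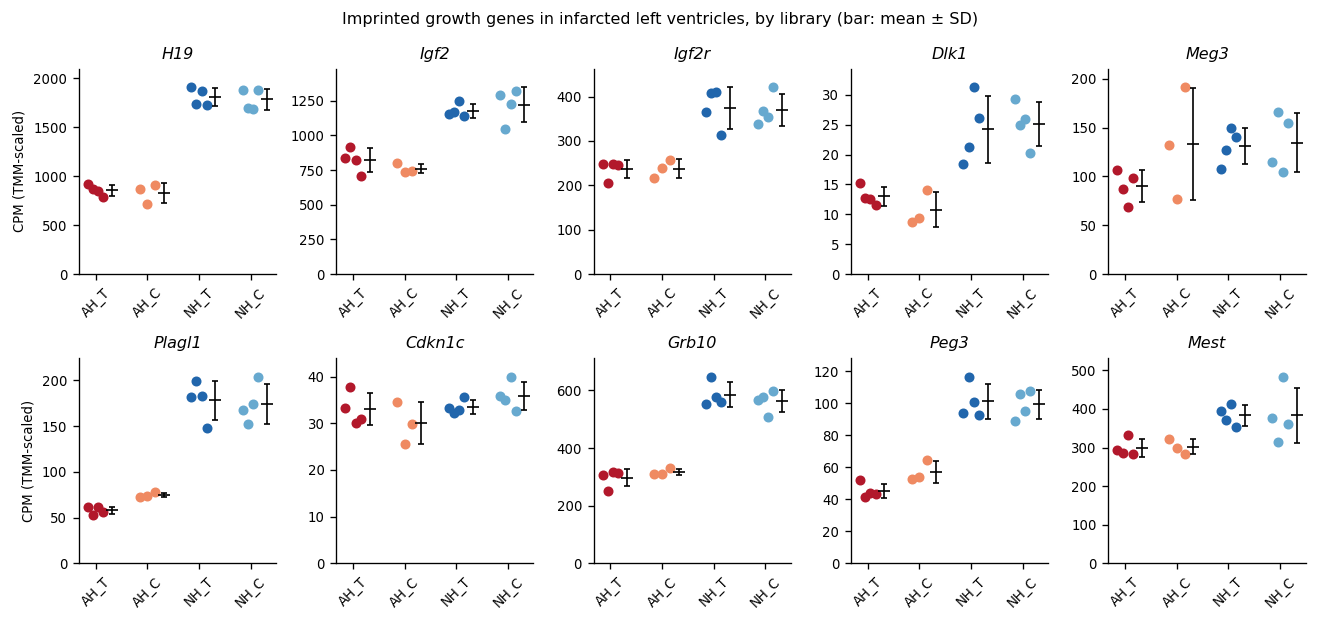
Level of each imprinted growth gene in every library, in CPM after TMM scaling, from 0. Points are libraries, bars are mean ± SD, and groups run AH_T, AH_C, NH_T, NH_C. All adult points of H19, Igf2, Igf2r, Dlk1, Plagl1, Grb10 and Peg3 lie below all neonatal points, whereas those of Mest, Meg3 and Cdkn1c overlap.

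The main contrast was between hearts labelled adult and neonatal. In control hearts, 8 of the 10 genes were lower in adult ventricles by edgeR's quasi-likelihood test at an adjusted p under 0.05, where 15.4% of all tested genes were lower. In recipients 8 of 10 were lower, where 26.9% of all tested genes were. All 10 log2 fold changes were negative in both contrasts, with medians of −0.74 in controls and −0.78 in recipients, against −0.02 and −0.03 over all genes tested. The exceptions were Meg3 and Cdkn1c in both contrasts. Counted by the allele each gene is known for, 5 of 5 paternally expressed genes (Igf2, Dlk1, Plagl1, Peg3 and Mest) and 3 of 5 maternally expressed genes (H19, Igf2r and Grb10) were lower in each contrast. In control hearts, 7 of the 10 genes had every adult library below every neonatal one, which held for 16.9% of all genes. In recipients 9 of 10 did, against 23.8%. The genes were chosen with earlier results of these data known, so these counts describe them and do not test them against all genes. These are bulk samples, in which fewer cells of a type and less RNA per cell cannot be told apart.

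Other features of the libraries moved with age as well. Of all tested genes, 15.6% were higher and 15.4% lower in adult than in neonatal controls. All 6 cycling-cell markers were lower in adult than in neonatal controls, their sum being 295 to 375 CPM in adult controls and 437 to 539 CPM in neonatal controls. Of 6 macrophage markers, 4 were lower in adult controls, with a sum of 121 to 153 CPM there and 144 to 453 CPM in neonatal controls. Of 7 endothelial markers, 5 were higher, with a sum of 1395 to 1443 CPM in adult controls and 1019 to 1091 CPM in neonatal controls. The cardiomyocyte sum was 52150 to 54305 CPM in adult controls and 43726 to 48253 CPM in neonatal controls, with 3 of 8 markers higher. The fibroblast sum overlapped, at 3364 to 4810 CPM in adult controls and 3227 to 4930 CPM in neonatal controls, but single markers moved: 4 of 8 were higher in adult controls and 1 was lower. Among them Lum (1.12 ± 0.13, edgeR adjusted p = 1.54e-05) and Dcn (0.94 ± 0.09, adjusted p = 1.18e-06) were higher and Tcf21 was lower (−0.35 ± 0.11, adjusted p = 0.0192). Of 6 pericyte and smooth muscle markers, 3 were higher and 2 lower. Their sum was 1600 to 1910 CPM in adult controls and 1542 to 1755 CPM in neonatal controls. Atrial markers summed to 215 to 1078 CPM in adult controls and 1563 to 5744 CPM in neonatal controls, with 1 of 3 tested markers lower. That marker was Nppa, which supplied nearly all of the sum, at 188 to 1051 CPM in adult controls and 1533 to 5691 CPM in neonatal controls. The sum therefore describes Nppa and not the atrial list as a whole. Epicardial and mesothelial markers summed to 75.4 to 95.8 CPM in adult controls and 99.6 to 155 CPM in neonatal controls, with 4 of 7 lower. Erythroid markers summed to 2929 to 3068 CPM in adult controls and 838 to 2317 CPM in neonatal controls, with 1 of 6 higher and 1 lower. Skeletal muscle markers, some of which the heart also expresses, summed to 2217 to 2447 CPM in adult controls and 1454 to 2078 CPM in neonatal controls, with 1 of 5 tested higher and 2 lower. Mitochondrially encoded transcripts took 18.3% to 21.8% of counts in adult controls and 11.5% to 16.2% in neonatal controls. Between adult and neonatal recipients, 7 of 8 cardiomyocyte, 5 of 7 endothelial, 4 of 8 fibroblast and 4 of 6 erythroid markers were higher. All 6 macrophage and 5 of 6 cycling-cell markers were lower there. Also lower were 1 of 8 fibroblast and 2 of 7 epicardial and mesothelial markers. Of 6 pericyte and smooth muscle markers 3 were higher and 2 lower. Of 5 tested skeletal muscle markers 1 was higher and 2 lower, and 2 of 3 tested T cell markers were higher. In that contrast 23.8% of all tested genes were higher and 26.9% lower. None of these markers was at 0 throughout the control libraries. Their part in the result was not tested.

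**Figure D2:**
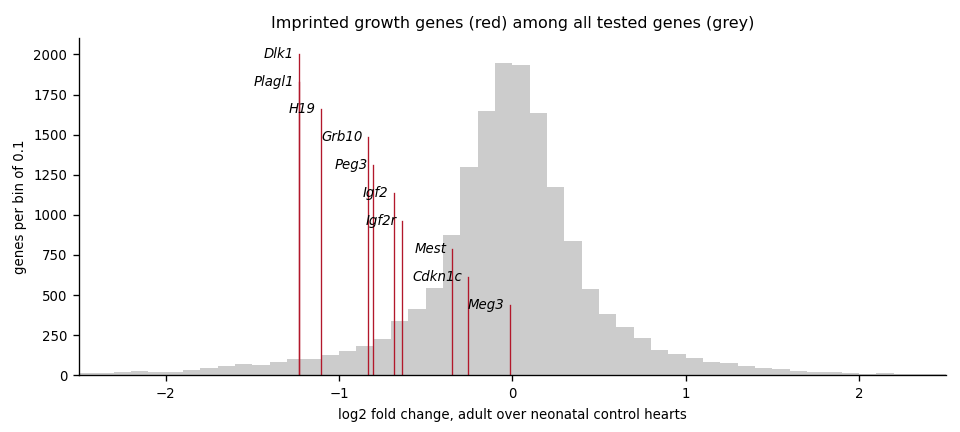
Distribution of log2 fold changes of all tested genes between adult and neonatal control hearts (grey, genes per bin of 0.1, shown between −2.5 and 2.5), with the imprinted growth genes as red lines whose heights carry no value. Dlk1 and Plagl1 at −1.23 lie farthest left and Meg3 at −0.02 lies at the centre.

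The first pair shares a locus. Igf2 (chromosome 7, 142650768-142666816, minus strand, GRCm38.p6) encodes insulin-like growth factor 2, and H19 (142575530-142578146, minus strand) is a long noncoding RNA that starts 72621 bases away. They share enhancers, and a methylated control region makes Igf2 paternal and H19 maternal. H19 is also the host of the microRNA miR-675, whose hairpin lies inside the H19 transcript. Its mature arms are shown because the hairpin has its own row in the count table and followed H19; seed bases 2 to 8 are in capitals, and the arms do not share a seed (RefSeq, GRCm38.p6).
mmu-miR-675-5p: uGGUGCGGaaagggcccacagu
mmu-miR-675-3p: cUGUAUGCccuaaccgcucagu

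H19 measured 918, 863, 851 and 782 CPM in adult recipients 1 to 4 and 872, 712 and 907 CPM in adult controls 5 to 7. It measured 1904, 1736, 1866 and 1729 CPM in neonatal recipients 1, 2, 4 and 5, and 1874, 1692, 1682 and 1881 CPM in neonatal controls 6 to 9. Every adult library therefore held at most 918 CPM and every neonatal one at least 1682 CPM, and adult controls held 46.6% of the neonatal control mean. The log2 fold change of adult over neonatal hearts was −1.10 ± 0.09 (SE, edgeR adjusted p = 3.44e-07) in controls and −1.08 ± 0.09 (adjusted p = 5.08e-08) in recipients.

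Igf2 was lower by less. It measured 840, 917, 824 and 710 CPM in adult recipients 1 to 4 and 799, 735 and 746 CPM in adult controls 5 to 7. In neonatal recipients 1, 2, 4 and 5 it measured 1157, 1168, 1250 and 1137 CPM, and in neonatal controls 6 to 9 it measured 1295, 1043, 1225 and 1321 CPM. The age groups did not overlap, and adult controls retained 62.2% of the neonatal control mean. Its log2 fold change was −0.68 ± 0.10 (edgeR adjusted p = 5.07e-05) in controls and −0.52 ± 0.09 (adjusted p = 9.52e-05) in recipients.

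The ratio of H19 to Igf2 within a library does not depend on library size. As log2 of the counts it averaged 0.12 ± 0.16 in adult controls and 0.55 ± 0.10 in neonatal controls (SD, n = 3 and 4). In recipients it averaged 0.06 ± 0.10 in adults and 0.62 ± 0.07 in neonates (SD, n = 4 each). All 7 adult ratios lay below all 8 neonatal ratios. The exact two-sided permutation test gave p = 0.0286 in each contrast, the smallest these group sizes allow, and an adjusted p of 0.171 over the 12 ratio tests, so the difference did not pass the correction. A test at that smallest p could pass only if most of the 12 tests reached it, so the correction could hardly be passed. The Mir675 row, which overlaps H19 on the same strand and held 1023 to 3530 counts per library, had 5.64% as many counts as H19. Reads of the host and of the hairpin cannot be told apart in that row, and a poly(A) library of this kind does not measure mature microRNAs.

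**Figure D3:**
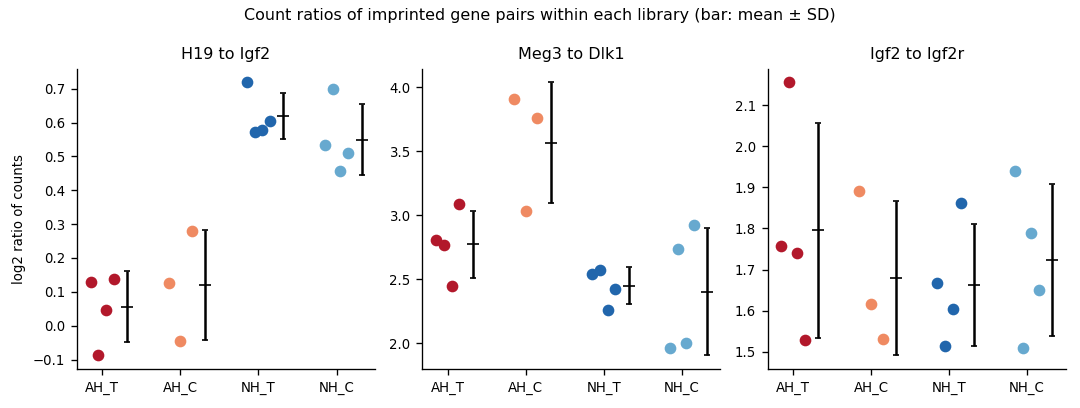
Log2 ratio of counts between pairs of imprinted genes in each library. Points are libraries and bars are mean ± SD, with groups in the order AH_T, AH_C, NH_T, NH_C, and the axes do not start at 0. The H19 to Igf2 ratio is at most 0.28 in every adult library and at least 0.46 in every neonatal one.

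Igf2r (chromosome 17, 12682406-12769706, minus strand) encodes the receptor that clears the Igf2 ligand by carrying it to lysosomes. It measured 249, 206, 247 and 246 CPM in adult recipients 1 to 4 and 216, 240 and 258 CPM in adult controls 5 to 7. It measured 364, 409, 411 and 313 CPM in neonatal recipients 1, 2, 4 and 5, and 337, 367, 354 and 420 CPM in neonatal controls 6 to 9. The ages did not overlap. The log2 fold change was −0.64 ± 0.11 (edgeR adjusted p = 0.000258) in controls and −0.66 ± 0.10 (adjusted p = 2.64e-05) in recipients, the second being −0.35 (adjusted p = 0.00102) once each library's trend with transcript length was removed. Values of H19, Igf2, Dlk1, Plagl1, Grb10 and Peg3 with that trend removed are in the closing section. The log2 ratio of ligand to clearance receptor averaged 1.68 ± 0.19 in adult controls and 1.72 ± 0.18 in neonatal controls, a difference of −0.04 that did not pass (SD, exact permutation p = 0.771). The antisense transcript Airn, which silences the paternal Igf2r copy in mouse tissues, lies opposite Igf2r with 26.4% as many counts. The strand setting of the counting is not stated, so reads of the pair may be shared.

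Grb10 (chromosome 11, 11930499-12037428, minus strand) encodes an adaptor that binds and restrains the insulin and insulin-like growth factor receptors. It measured 305, 252, 318 and 313 CPM in adult recipients 1 to 4 and 309, 310 and 329 CPM in adult controls 5 to 7. Neonatal recipients 1, 2, 4 and 5 held 554, 648, 578 and 559 CPM, and neonatal controls 6 to 9 held 568, 577, 509 and 596 CPM. The highest adult library was well under the lowest neonatal one. Its log2 change was −0.83 ± 0.09 (edgeR adjusted p = 4.10e-06) in controls and −0.98 ± 0.08 (adjusted p = 1.03e-07) in recipients. Ligand, clearance receptor and inhibitory adaptor of this growth pathway were thus all lower in adult hearts.

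Dlk1 and Meg3 are neighbours on chromosome 12, 77659 bases apart. Dlk1 (109452485-109463336, plus strand) encodes a paternally expressed transmembrane protein related to Notch ligands, and Meg3 (109540996-109571729, plus strand) a maternally expressed noncoding RNA. Dlk1 was the scarcest of the genes. It measured 15.3, 12.7, 12.6 and 11.5 CPM in adult recipients 1 to 4 and 8.76, 9.35 and 14.1 CPM in adult controls 5 to 7. It measured 18.4, 21.3, 31.2 and 26.1 CPM in neonatal recipients 1, 2, 4 and 5, and 29.3, 24.9, 26.0 and 20.3 CPM in neonatal controls 6 to 9. All adult libraries were below all neonatal ones, though neonatal levels spread widely. On the log2 scale the age difference was −1.23 ± 0.19 (edgeR adjusted p = 0.000219) in controls and −0.89 ± 0.17 (adjusted p = 0.000475) in recipients.

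Meg3 passed in neither age contrast. It measured 107, 86.7, 68.9 and 98.2 CPM in adult recipients 1 to 4 and 132, 76.6 and 191 CPM in adult controls 5 to 7. It measured 107, 127, 150 and 140 CPM in neonatal recipients 1, 2, 4 and 5, and 114, 166, 104 and 154 CPM in neonatal controls 6 to 9. Adult controls spanned the whole range of the neonatal controls and beyond. The log2 fold change was −0.02 ± 0.27 (edgeR adjusted p = 0.972) in controls and −0.54 ± 0.25 (adjusted p = 0.0907) in recipients. The control value was 0.26 without adult control 6 and −0.37 without adult control 7. In recipients 5 of 24 alternatives passed the threshold, and their log2 fold changes are given in the closing section. The log2 ratio of Meg3 to Dlk1 averaged 3.57 ± 0.47 in adult controls and 2.41 ± 0.50 in neonatal controls, with no overlap (SD, exact permutation p = 0.0571, adjusted 0.171 over 12 tests).

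Plagl1 (chromosome 10, 13090832-13131694, plus strand) encodes a zinc-finger transcription factor known in the mouse to activate other imprinted genes. It had the greatest age difference of the 10 genes in recipients. It measured 61.2, 53.1, 61.3 and 56.5 CPM in adult recipients 1 to 4 and 72.6, 73.6 and 77.4 CPM in adult controls 5 to 7. Neonatal recipients 1, 2, 4 and 5 held 182, 200, 183 and 148 CPM, and neonatal controls 6 to 9 held 168, 152, 175 and 204 CPM. Every adult level was at most 77.4 CPM and every neonatal level at least 148 CPM, and the adult recipients also lay below all adult controls. The age difference was −1.23 ± 0.10 on the log2 scale (edgeR adjusted p = 3.41e-07) in controls and −1.62 ± 0.10 (adjusted p = 2.27e-09) in recipients.

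Peg3 (chromosome 7, 6703892-6730462, minus strand) encodes a paternally expressed zinc-finger protein. It measured 52.0, 41.7, 43.7 and 43.5 CPM in adult recipients 1 to 4 and 52.5, 53.8 and 64.6 CPM in adult controls 5 to 7. Neonatal recipients 1, 2, 4 and 5 held 94.2, 117, 101 and 92.8 CPM, and neonatal controls 6 to 9 held 88.8, 106, 95.2 and 108 CPM. As for Plagl1, adult recipients lay below all adult controls, and all adult libraries lay below all neonatal ones. Its log2 fold change with age was −0.80 ± 0.10 (edgeR adjusted p = 2.13e-05) in controls and −1.16 ± 0.10 (adjusted p = 7.40e-08) in recipients.

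The promoters of the genes were searched on both strands for GGGGCCCC, a core of the GC-rich element that Plagl1 protein is known to bind, and for the TATA box letters TATAAA. RefSeq's table (GRCm38.p6) gave 15 promoters of 300 bases, from 250 before to 50 after a start, for 8 of the 10 genes, H19 and Cdkn1c not being among them. Only Peg3 held GGGGCCCC, which reads the same on both strands and occurs in 1.08% of 32851 promoters. Only the first Meg3 promoter held TATAAA, as overlapping matches on both strands; 13.6% of all promoters hold it. The stretches are printed because they carry the matches, which are in capitals. Peg3's, at chr7:6730585-6730644 (minus strand), lies 225 to 166 bases before the start of its RefSeq promoter. That start is inside the gene span given above, not at its edge. Meg3's, at chr12:109540936-109540995 (plus strand), lies 60 to 1 bases before its start. A match of letters describes the sequence and is not a measured binding site.
Peg3: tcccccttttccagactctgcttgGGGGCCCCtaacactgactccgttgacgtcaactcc
Meg3: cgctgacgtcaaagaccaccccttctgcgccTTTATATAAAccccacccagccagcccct

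Mest (chromosome 6, 30733506-30748466, plus strand) encodes a paternally expressed protein of the hydrolase fold family, named for its expression in mesoderm. It measured 293, 285, 333 and 283 CPM in adult recipients 1 to 4 and 322, 300 and 284 CPM in adult controls 5 to 7. Neonatal recipients 1, 2, 4 and 5 held 394, 372, 414 and 353 CPM, and neonatal controls 6 to 9 held 376, 315, 484 and 362 CPM. The ages did not overlap in recipients, but in controls adult library 5 exceeded neonatal library 7. With age its log2 fold change was −0.35 ± 0.11 (edgeR adjusted p = 0.0257) in controls and −0.36 ± 0.10 (adjusted p = 0.00757) in recipients. The control result rested on single libraries: its adjusted p was 0.0667 without adult control 6, 0.0992 without adult control 7 and 0.06696 without neonatal control 8, where the log2 fold change was −0.22. It was 0.0639 with the length trend removed. Copg2 lies opposite Mest over 913 bases and had 14.3% as many counts, so some reads may be shared.

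Cdkn1c (chromosome 7, 143458339-143461059, minus strand) encodes p57, a maternally expressed inhibitor of cyclin-dependent kinases. It measured 33.4, 37.7, 30.0 and 31.0 CPM in adult recipients 1 to 4 and 34.6, 25.6 and 29.9 CPM in adult controls 5 to 7. Neonatal recipients 1, 2, 4 and 5 held 33.2, 32.3, 32.9 and 35.6 CPM, and neonatal controls 6 to 9 held 35.8, 35.0, 40.0 and 32.6 CPM. All 4 groups overlapped. The log2 fold change with age was −0.26 ± 0.10 (edgeR adjusted p = 0.0648) in controls and −0.02 ± 0.09 (adjusted p = 0.871) in recipients. Without adult control 5 the control value passed, at −0.37 (adjusted p = 0.0228), and without neonatal control 9 it passed at −0.30 (adjusted p = 0.0483).

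**Figure D4:**
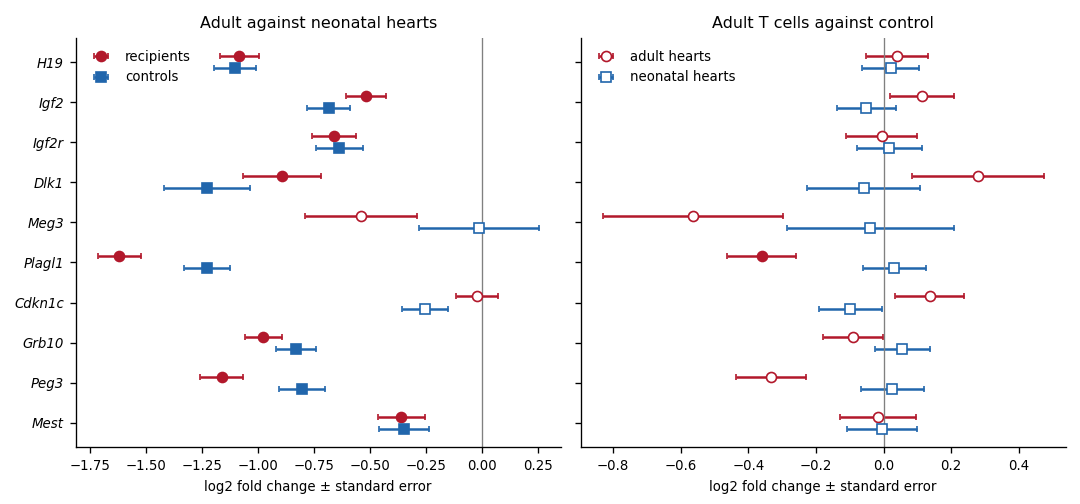
Log2 fold changes ± standard error of the imprinted growth genes from the edgeR fit, with adult over neonatal hearts on the left and T cell recipients over controls on the right. Filled symbols passed an adjusted p of 0.05, and the axes differ in range. On the left all symbols but those of Meg3 and Cdkn1c are filled, and on the right only Plagl1 in adult hearts, at −0.36.

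The second question was whether transferred adult T cells moved these genes. In adult hearts, 1 of the 10 genes passed, Plagl1, a count near the 8.55% of all tested genes that passed in either direction. Plagl1 fell to 58.0 ± 4.00 CPM in adult recipients, against 74.5 ± 2.53 CPM in adult controls (SD, n = 4 and 3), a log2 fold change of −0.36 ± 0.10 (edgeR adjusted p = 0.0386). Peg3 measured 45.2 ± 4.60 CPM in adult recipients and 57.0 ± 6.66 CPM in adult controls, and just missed the threshold (log2 fold change −0.33 ± 0.10, adjusted p = 0.0501). Plagl1 and Peg3 were the 2 genes whose adult recipients all lay below the adult controls, a pattern shared by 12% of all genes. Meg3 averaged 90.1 ± 16.4 CPM in adult recipients and 133 ± 57.2 CPM in adult controls (log2 fold change −0.56 ± 0.27, adjusted p = 0.195). Dlk1 averaged 13.03 ± 1.58 CPM in adult recipients and 10.7 ± 2.92 CPM in adult controls (0.28 ± 0.19, adjusted p = 0.379). H19, Igf2, Igf2r, Grb10, Cdkn1c and Mest had log2 fold changes between −0.09 and 0.14, and none passed.

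The Plagl1 call depended on single libraries. Its adjusted p was 0.0506, 0.0928 and 0.0980 without adult recipient 1, 2 or 4, and 0.0951, 0.116 and 0.0837 without adult control 5, 6 or 7, while its log2 fold change stayed between −0.39 and −0.32. With the trend of each library with transcript length removed it was −0.23 (adjusted p = 0.155), and Peg3's was −0.10 (adjusted p = 0.529); with that trend removed, 0 genes passed in the whole table, against 1406. T cell markers summed to 2.26 to 4.19 CPM in adult recipients and 1.42 to 2.11 CPM in adult controls, with 1 of 3 tested markers higher. Cardiomyocyte markers summed to 62435 to 70098 CPM in adult recipients and 52150 to 54305 CPM in adult controls, with 3 of 8 higher. Erythroid markers summed to 3702 to 5355 CPM in adult recipients and 2929 to 3068 CPM in adult controls, none of the 6 passing. Skeletal muscle markers summed to 2851 to 3334 CPM in adult recipients and 2217 to 2447 CPM in adult controls, none of the 5 tested passing. Of 6 cycling-cell markers 1 was lower, Mki67, at 80.3 to 99.9 CPM in adult recipients and 107 to 123 CPM in adult controls (−0.37 ± 0.09, edgeR adjusted p = 0.0211). Mitochondrially encoded transcripts took 12.9% to 18.0% of counts in adult recipients and 18.3% to 21.8% in adult controls. Their part in the Plagl1 result was not tested.

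In neonatal hearts 0 of the 10 genes passed, and 0% of all tested genes did by edgeR, while 513 genes had an unadjusted p under 0.05, none of them among the 10. DESeq2 and limma voom also called 0 genes. The log2 fold changes of the 10 genes lay between −0.10 (Cdkn1c, SE 0.09) and 0.06 (Grb10, SE 0.08), with standard errors up to 0.25 for Meg3. Plagl1 measured 178 ± 21.6 CPM in neonatal recipients and 175 ± 21.9 CPM in neonatal controls, and Peg3 101 ± 10.9 CPM in neonatal recipients and 99.5 ± 9.01 CPM in neonatal controls. Macrophage markers summed to 359 to 525 CPM in neonatal recipients and 144 to 453 CPM in neonatal controls, none of the 6 markers passing the test.

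Whether the T cell response differed between ages was tested as the adult effect minus the neonatal effect. For Plagl1 the difference was −0.39 ± 0.14 (edgeR unadjusted p = 0.0108, adjusted p = 0.211) and for Peg3 −0.36 ± 0.14 (unadjusted p = 0.0182, adjusted p = 0.240). For Meg3 it was −0.52 ± 0.36 (adjusted p = 0.517). None of the 10 genes passed, and 0% of all genes did. Across the table, 2511 genes had an unadjusted p under 0.05, limma voom called 0 genes, and DESeq2 called 174, none of the 10 among them. The difference between ages in the response of these genes was therefore not established. The comparisons of age and of T cells share libraries, so their values for 1 gene are not independent.

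Partners of the Igf2 pathway were counted next. All 3 mRNA-binding proteins named for binding Igf2 transcripts were lower in adult hearts: the log2 fold changes in controls were −2.41 ± 0.25 for Igf2bp1, −1.35 ± 0.13 for Igf2bp3 and −1.02 ± 0.14 for Igf2bp2 (edgeR adjusted p = 2.65e-06, 1.32e-06 and 4.02e-05). Igf2bp1 averaged 1.41 CPM in adult controls and 7.56 CPM in neonatal controls. Of 18 other genes of the insulin-like growth factor axis, 17 were tested, of which 4 rose and 6 fell in adult controls, with a median of −0.18, where 15.6% of all tested genes rose and 15.4% fell. Igf1r, the signalling receptor of Igf1 and Igf2, fell to 42.8 CPM in adult controls, against 73.3 CPM in neonatal controls (log2 fold change −0.78 ± 0.10, adjusted p = 2.84e-05). Pappa, a protease that releases the ligand from its binding proteins, was lower (−1.66 ± 0.34, adjusted p = 0.00121). Igfals, which stabilises the circulating ligand complex, was higher (2.45 ± 0.31, adjusted p = 2.05e-05), as was the secreted protease gene Htra1 (0.79 ± 0.10, adjusted p = 2.15e-05). In adult recipients against adult controls, Htra1 (0.35 ± 0.10, adjusted p = 0.0419) and Igfbp4 (0.33 ± 0.10, adjusted p = 0.0448), which encodes a binding protein of the ligand, were higher. Neither call held with the length trend removed, where no gene of the whole table passed in this contrast.

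Other imprinted genes were counted against the same shares of all genes, 15.6% higher and 15.4% lower. Of 5 further genes of the imprinted network, 1 rose and 2 fell in adult controls. The matrix proteoglycan gene Dcn, also a fibroblast marker, was higher (0.94 ± 0.09, edgeR adjusted p = 1.18e-06), and the amino acid transporter gene Slc38a4 (−0.60 ± 0.08, adjusted p = 3.29e-05) and Ndn (−0.32 ± 0.12, adjusted p = 0.0434) were lower. Of 49 other imprinted genes 39 were tested, of which 3 rose and 11 fell, with a median of −0.12. Peg10, a gene derived from a retrotransposon, fell to 4.36 CPM in adult controls, against 16.0 CPM in neonatal controls (−1.87 ± 0.17, adjusted p = 8.64e-07). Rian, a noncoding RNA of the Dlk1 and Meg3 locus, fell to 33.3 CPM in adult controls, against 65.2 CPM in neonatal controls (−0.97 ± 0.10, adjusted p = 3.40e-06). Usp29, a neighbour of Peg3, was lower as well (−1.40 ± 0.23, adjusted p = 0.000246), and the noncoding Peg13 was higher (0.64 ± 0.10, adjusted p = 0.000139). With T cells in adult hearts 5 of the 39 fell and 0 rose, where 5.03% of all tested genes fell and 3.53% rose. Among them were the ubiquitin ligase gene Ube3a (−0.51 ± 0.11, adjusted p = 0.0187), Ppp1r9a (−0.68 ± 0.15, adjusted p = 0.0203), Zim1 (−1.16 ± 0.29, adjusted p = 0.0252) and Phactr2 (−0.41 ± 0.11, adjusted p = 0.0317). These T cell calls did not hold with the length trend removed, where no gene of the whole table passed.

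Genes acting with Dlk1 and Cdkn1c gave mixed counts in adult against neonatal controls. Of 15 Notch pathway genes, 6 rose and 1 fell, where 15.6% of all genes rose and 15.4% fell. Between recipients 5 rose and 5 fell, where 23.8% rose and 26.9% fell. The ligand genes Jag2 (0.56 ± 0.09, edgeR adjusted p = 0.000244) and Dll4 (0.49 ± 0.08, adjusted p = 0.000235) and the target Hes1 (0.54 ± 0.10, adjusted p = 0.000825) were higher, and the transcriptional repressor gene Hey2 was lower (−1.13 ± 0.16, adjusted p = 6.86e-05). The receptor gene Notch2 was lower with T cells in adult hearts (−0.30 ± 0.09, adjusted p = 0.0404), though no gene passed there with the length trend removed. Of 11 related inhibitors, kinases and cyclins, 3 rose and 1 fell, against the same shares of 15.6% and 15.4%. Cdkn1a, the gene of the related inhibitor p21, rose (0.57 ± 0.10, adjusted p = 0.000469), as did the cyclin D genes Ccnd2 (0.68 ± 0.08, adjusted p = 1.02e-05) and Ccnd1 (0.26 ± 0.10, adjusted p = 0.0473). The kinase gene Cdk4 fell (−0.26 ± 0.09, adjusted p = 0.0260).

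Of 11 genes that set or keep DNA methylation and imprints, 2 fell in adult controls: the maintenance methyltransferase gene Dnmt1 (−0.43 ± 0.08, edgeR adjusted p = 0.000519) and its partner Uhrf1 (−0.46 ± 0.12, adjusted p = 0.00584). That count is near the 15.4% of all genes that fell. Between recipients 7 of the 11 fell, where 26.9% of all genes did. With T cells in adult hearts 3 fell, where 5.03% of all genes did: Tet2 (−0.70 ± 0.14) and Tet3 (−0.55 ± 0.10), which encode enzymes that oxidise methylated cytosine, and Zfp445 (−0.56 ± 0.11), a zinc-finger gene of imprint maintenance, each with an adjusted p of 0.0180. With the length trend removed, no gene of the whole table passed in this T cell contrast. The same held without adult recipient 4, adult control 5 or adult control 6. The files hold no methylation or allele-resolved values, so imprinting itself was not measured.

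Genes most like H19, Igf2 and Dlk1 were sought by the root mean square difference of centred log2 CPM over 15 libraries, among 11105 genes averaging at least 5 CPM. For Igf2 they were Cstf3 (0.104), Slc38a4 (0.115), which is in the imprinted network list, and Gtf2a1 (0.123). For H19 they were Mir675 (0.0695), which shares its reads, then Sqle (0.146) and Slc8a1 (0.152). For Dlk1 they included Vill (0.211) and Ripk3 (0.241), more distant than those of Igf2 or H19. These values describe likeness across libraries that share 1 strong age difference.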

How the data were processed

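The authors deposited 1 table of expected counts per gene (reads split into fractions; 61.1% of non-zero values were whole). Per the submitters' processing notes, bcl2fastq 2.20.0.422, cutadapt 2.5, STAR 2.7.2b, featureCounts 1.6.4 and DESeq2 1.24.0 were used on GRCm38.p6. The strand setting and fraction rule are not given in the sources used here. Libraries used oligo-dT capture and a stranded kit, per the labels' protocols. Groups came from titles.

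Counts were rounded, filtered by filterByExpr (minimum count 10, minimum total 15), TMM-scaled and fitted with edgeR 4.0.16 (R 4.3.3, robust quasi-likelihood, all 15 libraries, 1 coefficient per group). Two-sided tests were corrected over 16437 genes (Benjamini-Hochberg, threshold 0.05). Each SE is |log2 fold change| divided by the root of F. CPM carry the same TMM scaling, the trimmed mean of M values. Lengths are those of the longest GENCODE M21 transcript, matched for 93.3% of genes. Ratios used counts plus 0.5 and exact permutation tests. SDs and SEs include the spread between libraries, and floors cover counting error only. No libraries of a group agreed within sampling noise. The steps were tested on simulated data.

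The genes and lists were chosen with earlier results of these data known. From each list, up to 4 genes with the smallest p in adult against neonatal controls, and up to 4 with the smallest p for T cells, are named among those past the threshold; 1 gene named by the rules is not reported here. Alternatives were DESeq2 1.42.0 (size factors and test), limma 3.58.1 voom, no filter, fractions kept, mitochondrial genes left out, a spline with 5 degrees of freedom on transcript length removed, only the compared groups, each library left out, and a replicate block.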

Additional observations from a re-analysis of the deposited data

Results flagged for a closer look

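A single library lay far from the rest of its group. Igf2r measured 205.8 CPM in adult recipient 2, against 246 to 249 CPM in the other 3 adult recipients. Of the 39 sets of values examined in this way 1 was marked, where chance marks about 1 in 20.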

How the results depend on the processing

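H19, Igf2, Igf2r, Dlk1, Plagl1, Grb10 and Peg3 kept their direction and passed the threshold in all 24 alternatives of both age contrasts. Their size changed with the length trend removed. Between recipients the log2 fold change was then −0.35 for Igf2 and Igf2r, −0.73 for Dlk1, −0.79 for Grb10 and −0.85 for Peg3. For Plagl1 it was −1.42 and for H19 −1.06. The count of the 10 genes past the threshold was 7 to 9 without single libraries in controls, and 8 to 9 in recipients. For T cells in adult hearts it was 2 by DESeq2, 2 with only the groups compared, 0 with the length trend removed, and 0 to 2 without single libraries (0 without adult recipient 2 or 4 or adult control 5, 6 or 7). Over all genes that contrast gave 2324 by DESeq2, 0 with the length trend removed, and 0 to 1811 without single libraries, with 0 without adult recipient 4, adult control 5 or adult control 6. In neonatal hearts it gave 0 to 9 without single libraries, 9 arising without neonatal control 6. The difference between ages gave 174 by DESeq2. Peg3 with T cells in adult hearts passed in 6 of 23 alternatives (adjusted p 0.0314 to 0.529 over all 23). Meg3 between recipients passed by limma voom (−0.55), with only the groups compared (−0.53), with the replicate block (−0.38), and without adult control 6 or 7 (−0.54 each). Between controls Meg3 was 0.13 with the length trend removed, and −0.37 to 0.26 without single libraries. Cdkn1c between recipients was 0.058 with the replicate block and −0.091 to 0.022 without single libraries. Of the log2 ratios, H19 to Igf2 ranged from −0.15 to 0.016 for T cells in adults, Meg3 to Dlk1 from −0.10 to 0.22 for T cells in neonates, and Igf2 to Igf2r from −0.13 to 0.012 for T cells in neonates, from −0.0040 to 0.22 for T cells in adults and from −0.15 to 0.030 for age in controls, without single libraries. The causes were not tested.

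Libraries with the same number did not deviate together in every pair (correlations from −0.07 to 0.31, against −0.20 to 0.23 for different numbers). So few pairs cannot show whether the numbers mark pairs, and the main fit did not use them. The replicate block used the numbers in the titles. Only numbers 6 and 7 occur at both ages in controls, and only 1, 2 and 4 in recipients. The age difference in that fit therefore rested on those libraries alone. The block left 3724 genes past the threshold between controls, against 5085 without it, and 7239 between recipients, against 8339. Of the 10 genes 7 passed between controls with the block and 9 between recipients. Mest missed the threshold between controls (adjusted p = 0.107). Precision was limited by 3 or 4 libraries a group. The standard error of Meg3 was 0.25 to 0.27 in the age and T cell contrasts and 0.36 for the difference between ages.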
